A study of Mus musculus with 2 samples.

Results

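The genes described here are 9 imprinted growth genes, Cdkn1c, H19, Dlk1, Meg3, Peg3, Plagl1, Mest, Grb10 and Ndn, which were found by symbol among the 32285 genes of each library. All 9 symbols were present once. They had been chosen by earlier results of these data, among them the levels of Cdkn1c in the Schwann cells of both libraries, so that difference is given as a description only. The RNA came from whole spinal cords of FVB mice at postnatal day 4. One library was labelled SMA (mSmn-/-, hSMN22tg/0) and the other Con (mSmn+/-, hSMN22tg/0), so both groups carried the human SMN2 transgene, neither was wild type, and the Con mice kept 1 intact mouse Smn allele. Per the study's methods, each library was a pool of 3 littermates of the severe Taiwanese model of spinal muscular atrophy (SMA), a motor neuron disease caused by loss of the SMN protein. Their sexes were not given. With 1 library per group there was no spread between replicates, so no test between the libraries was made, and every interval below is a 95% interval that covers counting error only.

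An imprinted gene is transcribed mainly from the allele of 1 parent, which its germline methylation marks. Of the 9 genes, Cdkn1c, H19, Meg3 and in most tissues Grb10 are known to be used from the maternal allele, and Dlk1, Peg3, Plagl1, Mest and Ndn from the paternal allele. Many of them set the growth of the embryo and the young animal and are turned down after birth. Cdkn1c encodes a cyclin-dependent kinase inhibitor of the Kip family, which stops the cell cycle as progenitors differentiate, and in Schwann cells, the myelin-forming glia of peripheral nerve, it is known to hold back differentiation.

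The 9 genes lay on 5 chromosomes of the GRCm38 build (GENCODE M21 annotation). Cdkn1c was annotated at chr7:143458339-143461050 on the minus strand, and H19, a noncoding RNA, at chr7:142575529-142578143 on the same strand, 880195 bases away. Dlk1 (chr12:109452823-109463336) and Meg3 (chr12:109541001-109571726), a coding and a noncoding gene of 1 imprinted domain, lay 77664 bases apart on the plus strand. Peg3 (chr7:6703892-6730431) and Grb10 (chr11:11930508-12038683) were on the minus strand, and Plagl1 (chr10:13060504-13131694), Mest (chr6:30723547-30748465) and Ndn (chr7:62346569-62350262) on the plus strand. On the opposite strand Gm44732 overlapped Cdkn1c (892 bases), Gm26906 overlapped Meg3 (3096 bases), and Copg2 (912 bases) and Gm44296 (896 bases) overlapped Mest, and Ndn lay inside Gm32061. Short noncoding RNA genes on either strand are not listed. The strand setting of the counting was not given in the sources used here, so whether reads of these overlapping genes were kept apart from those of the members is not known.

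The sequences shown are microRNAs that lie in 3 members and promoters of 3 members. Of the members, H19, Mest and Meg3 are host transcripts of microRNAs, whose mature RNAs were not measured by this assay. The mature sequences (RefSeq, GRCm38.p6) are printed 5′ to 3′ with the seed, bases 2 to 8, in capitals, miR-675 from H19, miR-335 from Mest and miR-770 from Meg3, which also holds Mir1906-1, not shown.
miR-675-5p: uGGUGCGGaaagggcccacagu
miR-675-3p: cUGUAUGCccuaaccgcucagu
miR-335-5p: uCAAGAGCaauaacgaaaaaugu
miR-335-3p: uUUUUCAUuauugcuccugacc
miR-770-5p: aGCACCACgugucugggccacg
miR-770-3p: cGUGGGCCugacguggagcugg
No seed was shared between these 6 sequences. RefSeq promoters, from 250 bases before to 50 bases after a gene's start, were at hand for 7 of the 9 members (11 promoters), and not for Cdkn1c and H19. Plagl1 encodes a zinc finger transcription factor that binds GC-rich DNA, and the letters GGGGCCCC, which read the same on both strands, were searched for. It occurred in 354 of 32851 promoters (1.08%) and, among the members, in 1 promoter, that of Peg3, which is shown with the motif in capitals (chr7:6730370-6730669, minus strand). Such a match is a description of letters, not a binding site.
Peg3: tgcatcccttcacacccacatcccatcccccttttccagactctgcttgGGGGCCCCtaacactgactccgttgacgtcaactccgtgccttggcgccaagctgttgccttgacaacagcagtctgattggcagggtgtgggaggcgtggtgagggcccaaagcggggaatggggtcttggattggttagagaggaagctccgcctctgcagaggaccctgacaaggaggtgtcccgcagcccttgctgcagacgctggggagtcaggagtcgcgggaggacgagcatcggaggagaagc
Methylation of CpG dinucleotides is the mark that separates the parental alleles, so the promoters of the neighbours Dlk1 (chr12:109452573-109452872) and Meg3 (chr12:109540746-109541045) are shown with each CpG in capitals, both on the plus strand.
Dlk1: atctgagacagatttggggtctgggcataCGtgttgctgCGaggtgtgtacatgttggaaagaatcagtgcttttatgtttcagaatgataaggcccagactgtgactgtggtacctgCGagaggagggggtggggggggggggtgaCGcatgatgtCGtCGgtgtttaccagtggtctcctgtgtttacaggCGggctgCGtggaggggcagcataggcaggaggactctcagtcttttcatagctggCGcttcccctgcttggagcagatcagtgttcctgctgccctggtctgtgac
Meg3: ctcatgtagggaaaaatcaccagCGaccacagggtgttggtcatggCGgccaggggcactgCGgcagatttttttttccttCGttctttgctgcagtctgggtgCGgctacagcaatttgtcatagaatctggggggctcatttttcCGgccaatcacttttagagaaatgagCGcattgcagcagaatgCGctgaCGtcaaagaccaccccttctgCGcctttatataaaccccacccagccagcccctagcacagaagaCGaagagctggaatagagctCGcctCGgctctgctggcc
The Dlk1 promoter held 9 CpG and the first Meg3 promoter 13, against a median of 7 over all promoters (quartiles 3 and 20). The first Grb10 promoter held 45 CpG, above 98.1% of all promoters, and that of Plagl1 held 26.

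The libraries held 85872075 UMIs (unique molecular identifiers, each of which tags 1 captured RNA molecule) in 26921 barcodes for SMA and 97894084 in 25419 barcodes for Con. Of these barcodes 8163 occurred in both files. Of the Con barcodes with at least 5000 UMIs 99.0% were also listed for SMA, where the copy held a median of 17.6% of the Con UMIs, so all SMA barcodes also listed for Con were left out. That left 6787 SMA cells and 8920 Con cells, with a median of 6109 and 6229 UMIs. Clusters made without the 9 genes were named from marker lists, and 11 classes had 50 cells or more in both libraries. The 91 SMA and 216 Con Schwann-like cells carried the 12 Schwann markers at a summed 50820 and 56856 CPM (UMIs per 1000000 UMIs of the class), with none at 0, against 491.9 CPM or less in the fibroblast-like and 521 CPM or less in the oligodendrocyte-like cells. Smn1, the targeted gene, was at 52.4 CPM in SMA and 51.1 CPM in Con over named cells other than erythroid, so it gave no check of the labels, and which part of the gene these 3′ counts came from was not analysed here. Xist was at 1.52 CPM in SMA and 618 CPM in Con, and Y-linked genes at 165 and 72.7 CPM, so the pools differed in their sexes and sex and genotype cannot be told apart.

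Levels are given as CPM of the summed UMIs of all cells of a class in 1 library. Cdkn1c was found mainly in 3 groups of cells in Con, the Schwann-like cells, the oligodendrocyte lineage and the cells of meninges and vessels. In Con the Schwann-like cells led with 1346 CPM (1295 to 1398), followed by committed oligodendrocyte precursors (COP-like) at 666, fibroblast-like cells at 404, mural-like cells at 337, endothelial-like cells at 295, oligodendrocyte-like cells at 233 and oligodendrocyte precursors (OPC-like) at 174 CPM. The intervals of mural-like and endothelial-like cells overlapped, and the other neighbours in this order did not. In SMA the order began with fibroblast-like cells at 886 CPM (812 to 964) and COP-like cells at 649, and the Schwann-like cells, at 157 CPM (132 to 185), were not told apart from endothelial-like (195) and OPC-like (149.7) cells. Astrocyte-like, ependymal-like, microglia-like and erythroid-like cells held 8.75 to 37.0 CPM of Cdkn1c in the libraries.

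**Figure D1:**
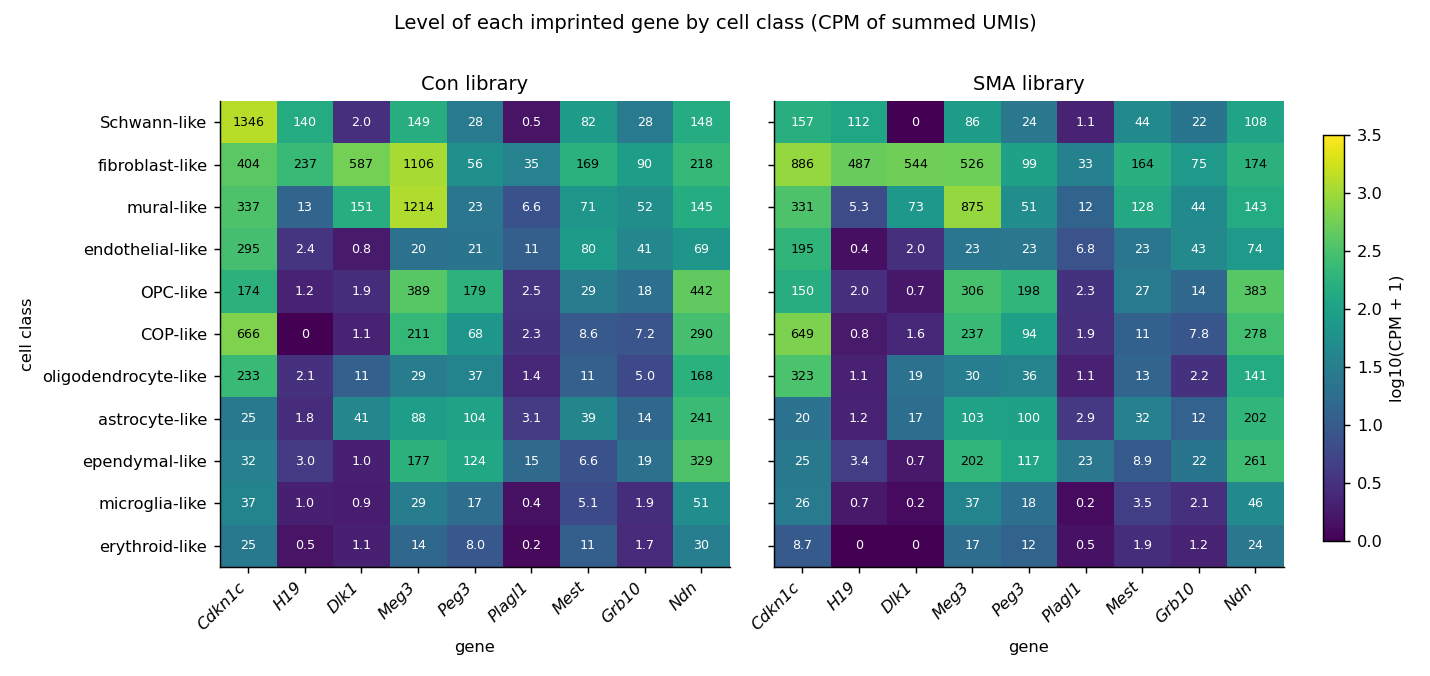
Level of the 9 imprinted genes (columns) in the 11 cell classes compared (rows), for Con on the left and SMA on the right. Colour gives log10(CPM + 1) and the number in each field the CPM. Cdkn1c was highest in Schwann-like cells in Con, at 1346 CPM, and in fibroblast-like cells in SMA, at 886 CPM.

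The other members had patterns of their own. The noncoding RNA H19 was nearly limited to fibroblast-like cells (237 CPM in Con, 487 in SMA) and Schwann-like cells (140 and 112 CPM), and in the other 9 classes compared held 12.7 CPM or less. Dlk1, a transmembrane protein related to the Notch ligands, was at 587 and 544 CPM in fibroblast-like cells and at 151 and 72.6 CPM in mural-like cells, the pericytes and smooth muscle of vessels. In Schwann-like cells Dlk1 had 4 UMIs in Con and 0 in SMA, which at a floor of 3 counts allows up to 3.41 CPM. Meg3, the noncoding neighbour of Dlk1, was also used outside connective tissue, with 1214 and 875 CPM in mural-like, 1106 and 526 in fibroblast-like and 389 and 306 in OPC-like cells. Plagl1 was low, at most 34.8 CPM in Con and 33.5 CPM in SMA, both in fibroblast-like cells. Mest, which encodes a hydrolase-like protein, and Grb10, an adaptor that dampens insulin and IGF receptor signals, were likewise highest in fibroblast-like cells, Mest at 169 and 164 CPM and Grb10 at 90.3 and 75.3 CPM. Of the 9 members 5 had their highest class there in Con and 6 in SMA, where Cdkn1c joined them. In SMA the intervals of Plagl1, Mest and Grb10 overlapped those of the next class, so these classes were not told apart. In Con they did not overlap.

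Peg3, a zinc finger protein, and Ndn, which encodes necdin, a growth suppressor of cells that have left the cycle, stood apart from this group, with their highest level among the 11 classes compared in OPC-like cells. Peg3 was at 179 CPM in Con and 198 in SMA there, and Ndn at 442 and 383 CPM. Over the 11 classes the levels of Peg3 and Ndn followed each other, with a Pearson r of log2(CPM + 1) of 0.94 in both libraries. Among 12895 genes with at least 100 UMIs in each library, Ndn was the gene most like Peg3, counted by the smaller r of the libraries. It was barely ahead of C1qtnf4 (both 0.94), and in neither library did Ndn have the highest r with Peg3. Peg3 in turn was not among the 5 genes most like Ndn. Meg3 was most like Rian (smaller r 0.95), another noncoding RNA of the same imprinted domain. The genes most like Cdkn1c were Uck2 and Mical3 (both with a smaller r of 0.81), Lima1 (0.81), Cltb (0.80) and Eid1 (0.78). These correlations describe 11 points that share libraries, depths and the same reading of free RNA.

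In Schwann-like cells Cdkn1c had 138 UMIs in SMA and 2644 in Con. This was 157 CPM against 1346 CPM, 8.58-fold lower in SMA (7.23 to 10.3), a log2 ratio of -3.10 (-3.36 to -2.85). This value chose the members and is a description. Of the 3528 genes with at least 100 UMIs over both libraries in these cells, 5 had a lower ratio, namely the haemoglobin genes Hbb-bt, Hbb-bs, Hba-a1 and Hba-a2 and Xist. In the class 0.879% of genes were at least 2-fold lower and 1.42% at least 2-fold higher in SMA, and the median log2 ratio of all genes was 0.04.

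Single cells showed the same contrast and its overlap. The median Schwann-like cell held 0 UMIs of Cdkn1c in SMA (range 0 to 19) and 2 UMIs in Con (range 0 to 196), or 0 and 242 CPM. Of the 91 SMA cells 17 lay above the Con median. After each cell was thinned to 1000 UMIs, 13 of 91 SMA cells (14.3%, 7.83 to 23.2) and 71 of 214 Con cells (33.2%, 26.9 to 39.9) had a UMI of Cdkn1c, with 2 shallower Con cells left out. Unthinned shares were 40.7% and 69.0%, at median depths of 9265 and 8671 UMIs. Erythroid-like cells, taken beforehand as a class without the gene, had a UMI in 0.698% (SMA) and 1.72% (Con) of thinned cells at median depths of 9907 and 9854 UMIs. Whether these UMIs are background was not tested. In Con the top 10% of Schwann-like cells held 69.4% of all Cdkn1c UMIs of the class, so the summed level rested on a minority of cells.

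**Figure D2:**
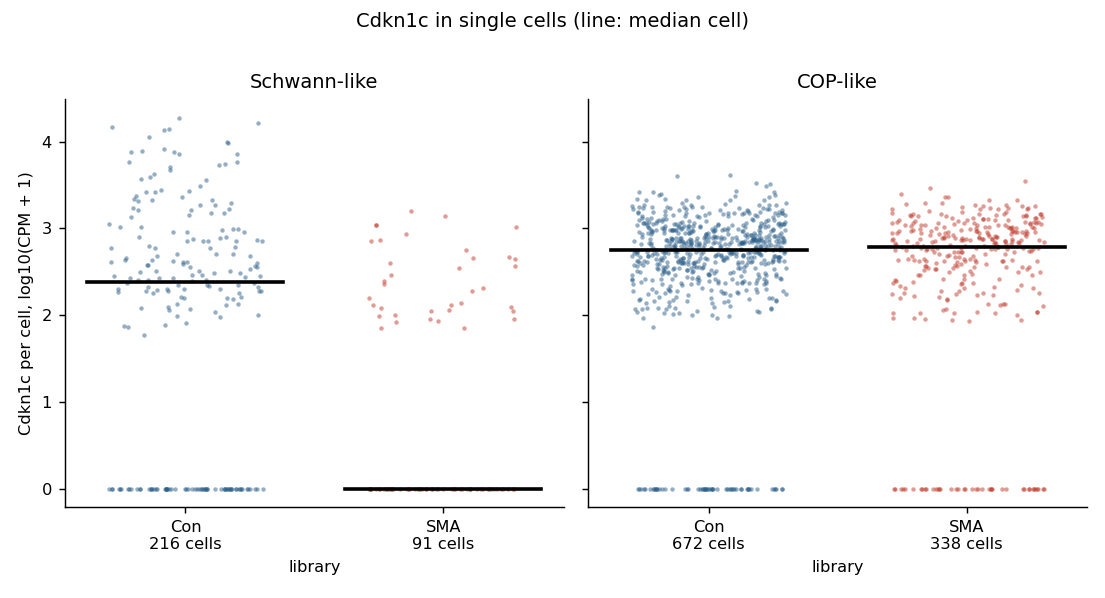
Cdkn1c in single cells, as log10(CPM + 1) on the vertical axis, for Schwann-like cells (left) and COP-like cells (right) of each library, with 1 point per cell and a black line at the median cell. The median Schwann-like cell held 242 CPM in Con and 0 in SMA, while the median COP-like cell held 562 and 603 CPM.

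When the Schwann-like cells were clustered again without the 9 genes, 6 sub-clusters resulted, and 1 of them, the fourth, stood out for Cdkn1c after its values had been seen. This sub-cluster, led by Fastkd3, Sinhcaf, Efnb2 and Timp1, held 45 Con cells with 1778 UMIs of Cdkn1c, or 5168 CPM (4931 to 5414), and only 5 SMA cells with 11 UMIs, or 341 CPM (170 to 611). The second sub-cluster, led by Sv2c and Myo7a, held 282 CPM of Cdkn1c in 44 Con cells and 185 CPM in 25 SMA cells. In the cells led by Sox11, Cdkn1c was at 332 CPM in 61 Con cells and 46.9 CPM in 24 SMA cells. A cycling sub-cluster with Mki67 at 159 and 144 CPM had Cdkn1c at 898 CPM in 23 Con cells and 66.7 CPM in 17 SMA cells. Cdkn1c was lower in SMA in each of the 6 sub-clusters, but in the sixth, with 5 cells and 6 UMIs in SMA and 5 cells and 10 UMIs in Con, the counting intervals overlapped. In the second the intervals of the levels overlapped slightly, while that of the log2 ratio left out 0 (-0.61, -1.11 to -0.14). The share of cells in the fourth was 20.8% in Con and 5.49% in SMA. Without it, Cdkn1c was at 150 CPM in SMA and 534 CPM in Con, a log2 ratio of -1.84 (-2.12 to -1.56).

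**Figure D3:**
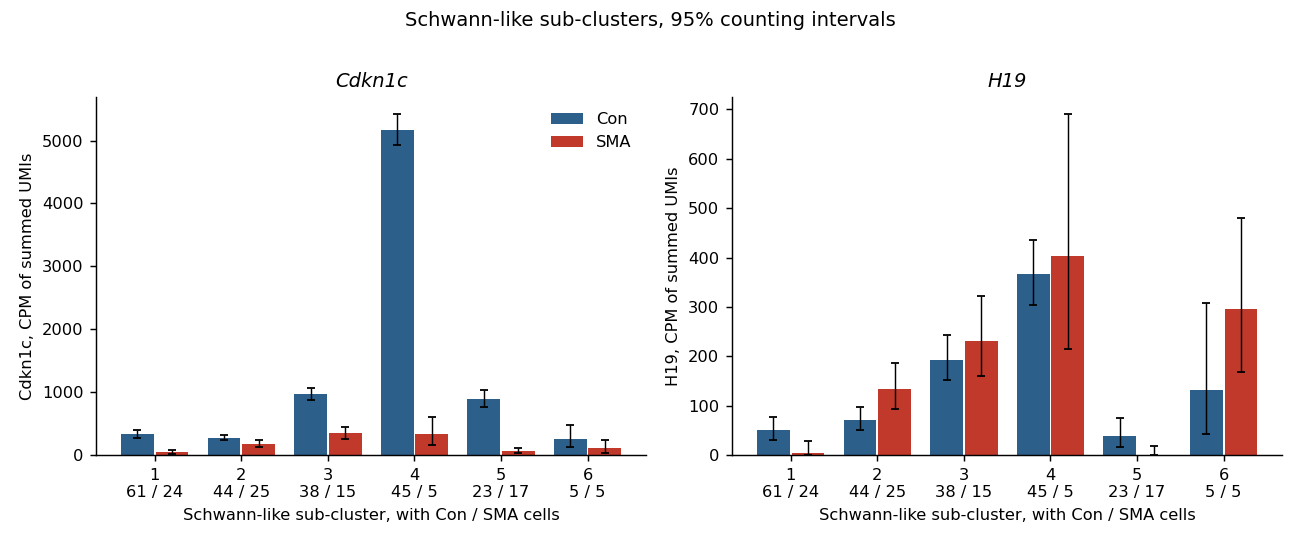
Cdkn1c (left) and H19 (right) as CPM of summed UMIs in the 6 sub-clusters of Schwann-like cells, with Con in blue, SMA in red, counting intervals as error bars and the number of Con and SMA cells under each pair. Cdkn1c reached 5168 CPM in the fourth sub-cluster of Con and 341 CPM in that of SMA, where H19 was at 366 and 403 CPM.

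Other RNA moved with the library in the Schwann-like cells. The 11 erythroid markers summed to 482 CPM in SMA, with 4 at 0, and to 29020 CPM in Con, with 1 at 0. In cells with under 0.2% haemoglobin UMIs, Cdkn1c was at 153 CPM in 84 SMA cells and 1529 CPM in 184 Con cells, a log2 ratio of -3.32. In cells with 0.2 to 1% it was at 206 CPM in 7 SMA cells and 318 CPM in 13 Con cells (-0.63, -1.67 to 0.33), and in the 19 Con cells with over 1% at 235 CPM. Fibroblast markers were at 2518 and 2514 CPM and OPC markers at 235 and 238 CPM. Xist had 0 UMIs in SMA and 153 in Con, and Y-linked genes were at 125 and 109 CPM. The part of the sexes of the pools in the Cdkn1c difference cannot be told apart from that of the genotype. The 203 Schwann-like SMA barcodes that were left out because Con listed them too had Cdkn1c at 1103 CPM, and with them kept the log2 ratio was -1.56.

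Of the other 8 members 4 had at least 100 UMIs over both libraries in Schwann-like cells, and all 4 were lower in SMA by under 2-fold. H19 was at 112 CPM in SMA and 140 in Con, with an interval of the log2 ratio that held 0 (-0.67 to 0.02). Meg3 was at 86.4 and 149 CPM (log2 ratio -0.78, -1.17 to -0.41), Mest at 44.3 and 82.0 CPM (-0.89, -1.43 to -0.37) and Ndn at 108 and 148 CPM (-0.46, -0.81 to -0.12). In cells with under 0.2% haemoglobin UMIs Mest passed 2-fold, at 44.1 and 90.5 CPM (-1.04). Peg3 (21 and 55 UMIs), Grb10 (19 and 55 UMIs), Dlk1 and Plagl1 had too few UMIs to be compared. The median log2 ratio of the 5 measured members was -0.78.

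Within the Schwann-like sub-clusters the other members did not share the peak of Cdkn1c in the same way. H19 was highest in the fourth sub-cluster in both libraries, at 366 CPM in Con (126 UMIs) and 403 CPM in SMA (13 UMIs), so no ratio like that of Cdkn1c was seen for H19 in these 5 SMA cells. H19 rested on few cells, with a UMI in 13.2% of SMA Schwann-like cells. Mest was also highest there in Con, at 163 CPM, against 40.1 CPM in the second sub-cluster. Meg3 was highest in the cells led by Sox11, at 353 CPM in Con and 136 CPM in SMA, and was at 46.8 and 46.2 CPM in the second sub-cluster. Ndn varied least, from 86.3 to 188 CPM in Con and from 76.9 to 130 CPM in SMA. Without the fourth sub-cluster H19 had a log2 ratio of 0.13, while Meg3 (-0.85), Mest (-0.57) and Ndn (-0.48) stayed lower in SMA.

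Genes of the surrounding pathways were taken from lists. Of 9 measured Schwann myelination genes 1, Pmp2, which encodes a myelin lipid-binding protein, was at least 2-fold lower (407 CPM in SMA, 1269 in Con, log2 ratio -1.64) and none was higher. Among the others Mag had a log2 ratio of -0.21 and the myelin regulator Egr2 one of 0.39, with a median of -0.06 over the 9. None of 5 measured genes of immature Schwann cells passed 2-fold. Sox2 had a log2 ratio of 0.66 and Pou3f1 -0.49. Of 8 measured cycling genes 6 were at least 2-fold higher in SMA, with a median log2 ratio of 1.35, among them Cenpf (1.54), Cdca8 (1.49), Ccnb1 (1.45) and Ube2c (1.38). After thinning, 12 of 91 SMA cells (13.2%, 7.0 to 21.9) and 17 of 214 Con cells (7.94%, 4.70 to 12.4) had at least 2 UMIs of the cycling list, and these intervals overlapped. None of the 3 other cyclin-dependent kinase inhibitors measured passed 2-fold, and their log2 ratios were 0.68 for Cdkn2d, 0.46 for Cdkn1a and 0.37 for Cdkn1b. Of 6 other imprinted genes measured, 1 was at least 2-fold lower, Kcnq1ot1, a noncoding RNA known to silence Cdkn1c on the paternal allele, at 42.0 CPM in SMA and 98.8 in Con.

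Over all classes, 60 of the 99 pairs of a member and a class had at least 100 UMIs over both libraries and 39 did not. Of the 60 pairs 7 were at least 2-fold lower in SMA, 2 were at least 2-fold higher and 51 lay within 2-fold. Among 66683 pairs of any gene and a class, 1.21% were at least 2-fold lower and 1.22% at least 2-fold higher, but since this contrast was among the values known when the members were chosen, nothing is read from the difference in shares. By class, the share of genes at least 2-fold lower was 0.103% in OPC-like, 0.116% in ependymal-like, 0.136% in microglia-like, 0.182% in COP-like, 1.21% in erythroid-like, 1.51% in mural-like and 1.96% in oligodendrocyte-like cells. At least 2-fold higher were 0.29% in ependymal-like, 0.291% in OPC-like, 0.294% in microglia-like, 0.444% in astrocyte-like, 0.794% in COP-like, 0.948% in endothelial-like, 1.02% in mural-like, 3.15% in erythroid-like and 7.95% in oligodendrocyte-like cells. The members past 2-fold lay in fibroblast-like (3), erythroid-like (2), Schwann-like, mural-like, endothelial-like and astrocyte-like cells (1 each). Cdkn1c and Ndn were measured in all 11 classes, Meg3 in 10, Peg3 in 8, Mest in 7, Grb10 in 6, Dlk1 in 3 and H19 and Plagl1 in 2 each. Peg3, Plagl1, Grb10 and Ndn were within 2-fold in each class where they were measured, and Ndn had log2 ratios from -0.46 in Schwann-like to 0.10 in endothelial-like cells. When SMA barcodes shared with Con were kept, 1 of the 7 lower pairs, that of Cdkn1c in Schwann-like cells, and 1 of the 2 higher pairs remained.

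**Figure D4:**
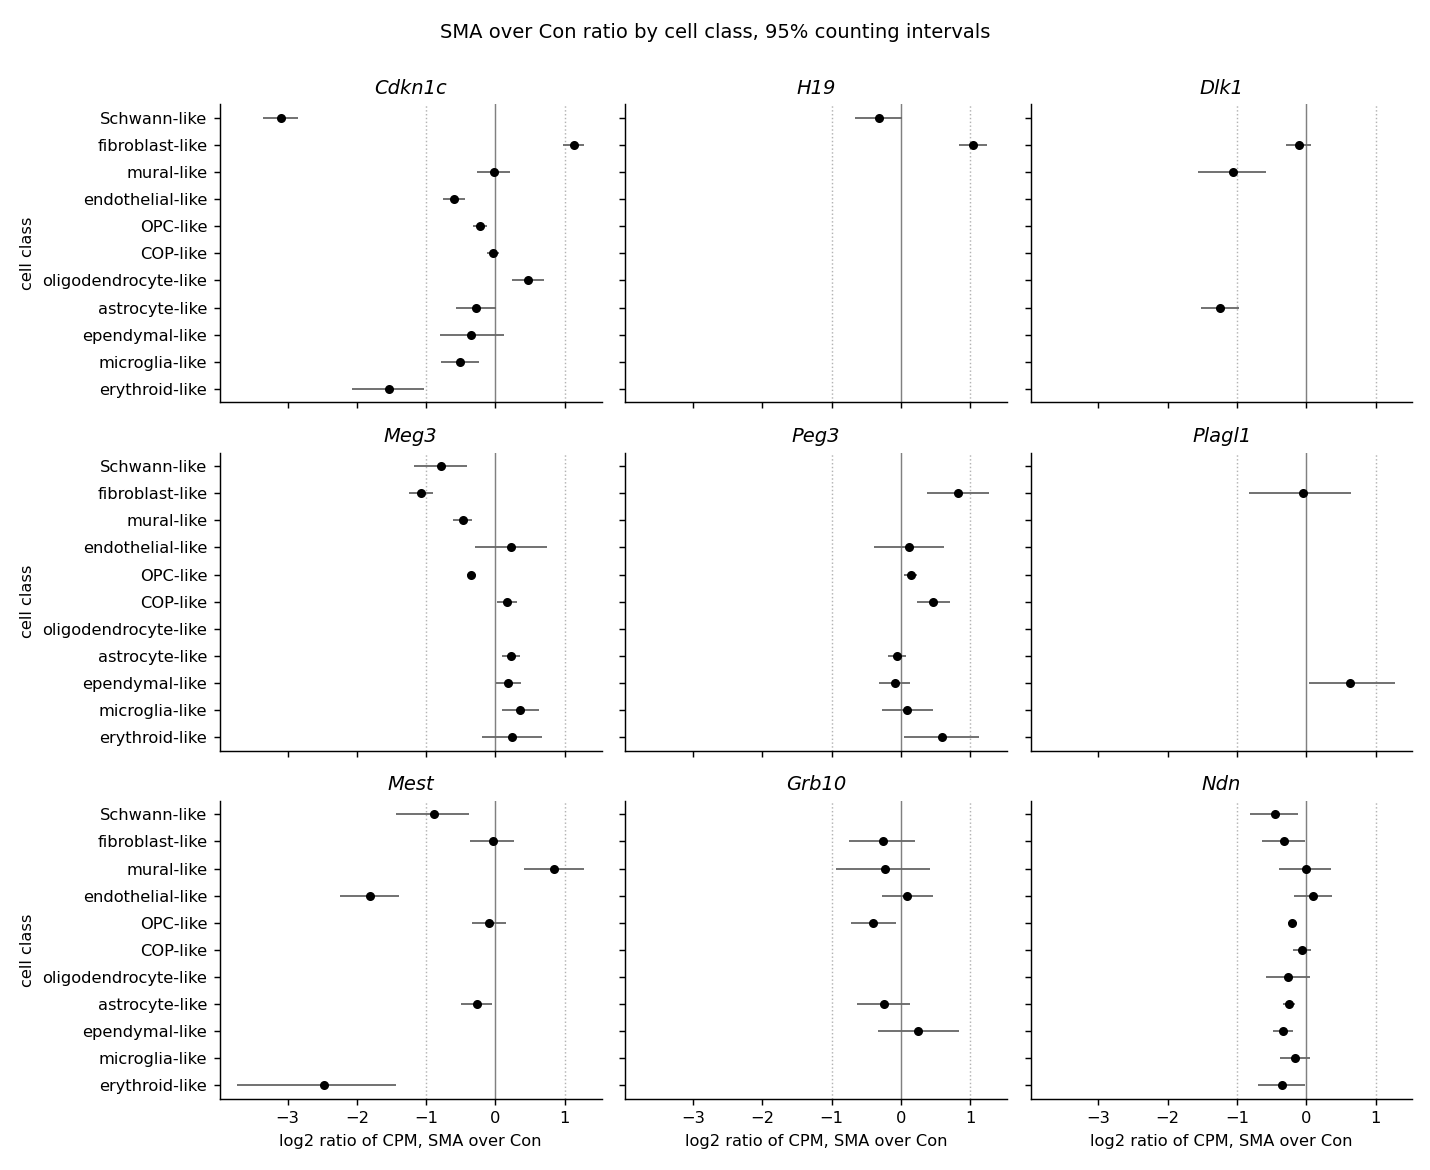
Log2 ratio of CPM, SMA over Con (horizontal axis), for each of the 9 members in each class where it had at least 100 UMIs over both libraries (vertical axis), with 95% counting intervals. Solid lines mark 0 and dotted lines 2-fold. Cdkn1c in Schwann-like cells lies at -3.10, farther from 0 than any other pair.

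In the oligodendrocyte lineage Cdkn1c did not share the difference of the Schwann-like cells. It was at 649 CPM in SMA and 666 in Con in COP-like cells, a log2 ratio of -0.04 (-0.12 to 0.05), with 50.9% and 43.8% of thinned cells holding a UMI. In OPC-like cells it was at 149.7 and 174 CPM (log2 ratio -0.22, -0.32 to -0.12), and in oligodendrocyte-like cells at 323 and 233 CPM (0.47, 0.24 to 0.70), where the median of all genes was 0.34. Its level was thus higher in the precursors about to differentiate than in either neighbour of the lineage, in both libraries. Within OPC-like cells it was lower in cells with cycling genes, at 119 against 162 CPM in SMA (434 and 1390 cells) and 154 against 182 CPM in Con (376 and 1161 cells). The log2 ratios of cycling over other cells were -0.44 (-0.61 to -0.27) and -0.24 (-0.41 to -0.07). In Schwann-like cells it was at 78.6 CPM in 12 cycling cells and 170 CPM in the others in SMA (log2 ratio -1.11, -2.21 to -0.19). In Con these values were 1324 CPM in 17 cycling cells and 1349 CPM in the others (-0.03, -0.24 to 0.18).

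Cells with cycling genes also held less Cdkn1c in Con in endothelial-like cells, at 128 against 308 CPM (31 of 455 cells were cycling), and in fibroblast-like cells, at 234 against 428 CPM (48 of 558 cells). Dlk1 in Con fibroblast-like cells was at 213 against 638 CPM and H19 at 52.4 against 261 CPM, so these growth genes too were lower in the cycling cells of that class. That class mixed sub-clusters of very different levels, and whether the contrast held within them was not tested. In Con endothelial-like cells Meg3 (58.3 against 16.4 CPM) and Mest (128 against 76.4 CPM) were instead higher in the cycling cells. Meg3 was lower in cycling OPC-like cells of both libraries, with log2 ratios of -0.60 in SMA and -0.32 in Con. Ndn differed less there, with log2 ratios of -0.06 in SMA and -0.24 in Con. The Con fibroblast-like cells of the Con-only sub-clusters included one led by Plk1, a mitotic kinase gene, in which Cdkn1c was at 28.1 CPM.

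In the glia Ndn, Peg3, Meg3, Plagl1 and Grb10 were within 2-fold wherever they were measured. Ndn was at 383 CPM in SMA and 442 in Con in OPC-like cells (log2 ratio -0.20), at 261 and 329 CPM in ependymal-like cells (-0.33), at 202 and 241 CPM in astrocyte-like cells (-0.25) and at 278 and 290 CPM in COP-like cells (-0.06). It was thus lower in SMA by a small and similar amount in most glia, with intervals that left out 0 except in COP-like, microglia-like and oligodendrocyte-like cells. Peg3, which followed Ndn in level, did not follow it in this, with log2 ratios of 0.14 in OPC-like, 0.47 in COP-like, -0.09 in ependymal-like and -0.05 in astrocyte-like cells. Meg3 was lower in OPC-like cells (-0.34) and higher in astrocyte-like (0.22), ependymal-like (0.19) and COP-like cells (0.17). Plagl1, which was measured in ependymal-like cells besides the fibroblast-like, was at 23.5 and 15.1 CPM there (0.64, 0.03 to 1.28), and in OPC-like cells Grb10 was at 13.8 and 18.2 CPM (-0.40, -0.73 to -0.07).

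In fibroblast-like cells, the class that used most members, Cdkn1c and H19 were higher in SMA, Cdkn1c at 886 against 404 CPM (log2 ratio 1.13, 0.98 to 1.28) and H19 at 487 against 237 CPM (1.04, 0.83 to 1.24). Meg3 was lower, at 526 against 1106 CPM (-1.07, -1.25 to -0.91). Dlk1, Plagl1, Mest, Grb10 and Ndn lay between -0.33 and -0.04, and Peg3 was at 98.8 against 55.5 CPM (0.83). The median of the 9 was -0.05, and in this class 12.6% of all 4072 genes were at least 2-fold lower and 4.72% at least 2-fold higher. Erythroid markers summed to 519 CPM in SMA and 19821 in Con in these cells and the median depth was 8734 and 3481 UMIs. With only cells of at least 5000 UMIs the log2 ratio was 0.69 for Cdkn1c and 0.61 for H19, both then within 2-fold, and with totals taken without the haemoglobin genes it was 1.10 and 1.01. H19 was also within 2-fold, at 0.94 to 0.97, with shared barcodes kept, high-ribosome clusters kept, a mitochondrial limit of 20% or no limit of 4000 genes, and with only the Con barcodes that SMA also listed H19 was at 0.26 and Cdkn1c at 0.31. The class was not of 1 kind in the libraries. One of its clusters, led by Mmp3, Ccn5 and Cilp, held 433 Con cells and 2 SMA cells, and the other, led by Slc6a13, Col13a1 and Aldh1a2, held 167 Con cells and 62 SMA cells. A sub-cluster of 27 Con cells (4.5% of the class) and 14 SMA cells (21.9%) was led by Dcx and held Olig2 among its 10 leading genes, both known from neural cells, with Cdkn1c at 544 CPM in Con and 501 CPM in SMA.

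Without the cluster of 433 Con and 2 SMA cells the picture of the members was another. Cdkn1c was then at 872 CPM in SMA and 725 in Con (log2 ratio 0.27, 0.11 to 0.42), and H19 at 345 and 411 CPM (-0.25, -0.49 to -0.02). Leaving out the 2 SMA cells of that cluster took H19 in SMA from 487 to 345 CPM, so its value over all cells rested partly on them. Dlk1 was at 549 and 1148 CPM (-1.06, -1.24 to -0.89) and Meg3 at 487 and 1253 CPM (-1.36, -1.55 to -1.18). Mest, at 166 and 320 CPM, and Ndn, at 175 and 326 CPM, were lower in SMA by a log2 ratio of -0.94 and -0.90, Peg3 was at -0.01 and Grb10 at 0.25. In these cells 5.68% of 2675 genes were at least 2-fold lower and 2.73% at least 2-fold higher. Dlk1 and Meg3, the neighbours on chromosome 12, were thus both lower in SMA there, and Cdkn1c and H19 no longer passed 2-fold. The libraries still filled different sub-clusters of these cells, and in the largest one with cells of both, Dlk1 had a log2 ratio of -0.36 (-0.60 to -0.12) and Meg3 was at 689 CPM in SMA and 1373 in Con.

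**Figure D5:**
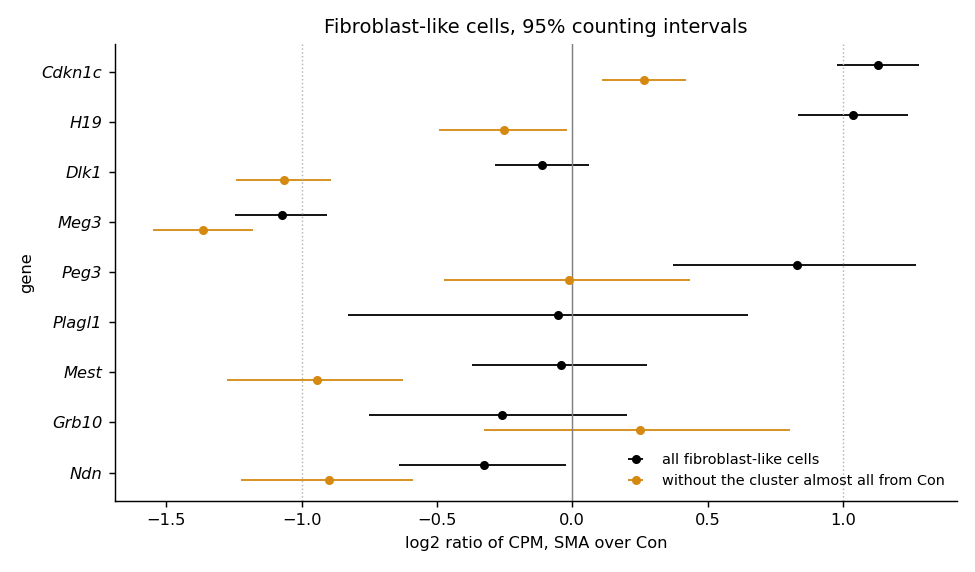
Log2 ratio of CPM, SMA over Con (horizontal axis), of the members in fibroblast-like cells, in black for all such cells and in orange without the cluster of 433 Con and 2 SMA cells, with 95% counting intervals. Cdkn1c goes from 1.13 to 0.27, H19 from 1.04 to -0.25 and Dlk1 from -0.11 to -1.06. Plagl1 has no orange point because it held under 100 UMIs there.

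Sub-clusters of the fibroblast-like cells showed which members went together. In 4 sub-clusters that held only Con cells (161, 111, 105 and 53 cells), Dlk1 was at 0 to 7.02 CPM and Mest at 0 to 32.0 CPM, while Meg3 stayed at 733 to 1172 CPM and Grb10 at 95.7 to 171 CPM. In the largest sub-cluster with cells of both libraries, led by Crym and Col9a1, Dlk1 was at 1259 CPM in 140 Con cells and 982 CPM in 20 SMA cells, and Mest at 334 and 244 CPM. Cdkn1c (753 CPM in Con and 598 in SMA, log2 ratio -0.33, -0.65 to -0.03) and H19 (459 and 220 CPM, -1.06, -1.59 to -0.58) were lower in SMA in that sub-cluster, unlike in the class as a whole. A sub-cluster led by Ptgds, a prostaglandin synthase gene of the meninges, held 30 SMA cells and 3 Con cells, with Cdkn1c at 1220 CPM and H19 at 813 CPM in the SMA cells. Over the 600 Con cells Cdkn1c and Dlk1 had a Pearson r of 0.67, Cdkn1c and Mest 0.61 and Dlk1 and Mest 0.65, over cells that differ in depth and of which many lay in the Con-only sub-clusters, where Cdkn1c was at 28.1 to 177 CPM. Over the 64 SMA cells the r of Cdkn1c with Dlk1 was -0.18 and with Mest -0.13, and that of Dlk1 with Mest was 0.42.

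In vessels and astrocytes single members differed. Mest was at 22.9 CPM in SMA and 80.2 CPM in Con in endothelial-like cells, a log2 ratio of -1.81 (-2.24 to -1.40), the 9th lowest of 6225 genes in a class where 0.723% were at least 2-fold lower. With the shared SMA barcodes kept it was -0.97. In mural-like cells Mest went the other way within 2-fold, at 128 and 70.9 CPM (0.85, 0.41 to 1.27). Dlk1 was lower in mural-like cells, at 72.6 and 151 CPM (-1.06, -1.57 to -0.58), and in astrocyte-like cells, at 17.4 and 41.1 CPM (-1.24, -1.52 to -0.97), where 0.395% of genes were at least 2-fold lower. The mural-like value was within 2-fold with every cell weighted equally (-0.93), with a mitochondrial limit of 20% (-0.86) and with the shared barcodes kept (-0.93), and the astrocyte-like value with the shared barcodes kept (-0.91). Cdkn1c in endothelial-like cells was at 195 and 295 CPM (-0.60, -0.76 to -0.44) and did not pass 2-fold. In erythroid-like cells Cdkn1c was at 8.75 and 25.2 CPM and Mest at 1.89 and 10.5 CPM, from 8 and 100 UMIs, and only 1.62% of SMA and 1.11% of Con cells held any Mest. The Mest value was within 2-fold with the shared barcodes kept (-0.87), with the high-ribosome clusters kept (-0.36) and with a mitochondrial limit of 20% (0.046). The part of free RNA in levels this low was not tested.

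The mean number of members detected per cell differed between the classes, but several classes lay close together. After thinning to 1000 UMIs, a fibroblast-like cell held a UMI of 1.64 members on average in SMA and 1.47 in Con, a mural-like cell of 1.11 and 1.23, a COP-like cell of 1.06 and 0.958, an OPC-like cell of 0.921 and 1.00 and a Schwann-like cell of 0.560 and 0.883. Microglia-like cells held 0.132 and 0.137 and erythroid-like cells 0.0628 and 0.0598, the lowest values among the 11 classes. In Schwann-like cells 56.0% of SMA cells and 38.8% of Con cells had no UMI of any member.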

How the data were processed

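Single-cell RNA-seq libraries (10x Genomics 3′, version 3 chemistry) were made from 1 SMA and 1 Con pool. The authors deposited raw counts of UMIs per gene and barcode, not normalised, made with Cell Ranger (version 4.0.0 per the file headers, which differs from the version given in the methods) on mm10 per the submitters' processing notes. Limits stated by the authors were applied here: 200 to 4000 genes, which was also the only treatment of doublets, a mitochondrial share under 10%, and no cluster with a median ribosomal share over 30% (1336 Con barcodes). SMA barcodes also listed for Con were left out of all values. Groups came from the labels.

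Cells were clustered (scanpy 1.11.5, python-igraph 0.11.9) on 2000 variable genes, without the members and the lists, with 30 principal components, 20 neighbours and Louvain resolution 1. UMIs were summed per class and library and divided by the total (CPM), with exact Poisson intervals, conditional binomial intervals for ratios and Clopper-Pearson intervals for shares (scipy 1.17.1). UMIs of cells in 1 library are not replicates. A pair counted as measured from 100 UMIs over both libraries and as past the fold at 2-fold. The scripts were tested on simulated data. The members and lists were chosen with earlier results of these data known. All members are named, and from each list at most 4 genes per comparison, those of the largest log2 ratio, plus the 5 genes most like Cdkn1c over classes. Alternatives were the shared barcodes, the cell limits, the resolution, the weights and the UMI minimum. The alternatives on the Schwann-like sub-cluster, the haemoglobin UMIs and the Con fibroblast-like cluster were chosen after seeing the data. Results that rest on 1 further gene are not reported here.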

Additional observations from a re-analysis of the deposited data

Results flagged for a closer look

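The summed level of Cdkn1c differed in opposite directions in different classes. Its log2 ratio, SMA over Con, was -3.10 in Schwann-like cells and -1.53 in erythroid-like cells but 1.13 in fibroblast-like cells. With 1 library per group, the difference between the classes was not tested, and in fibroblast-like cells the value was 0.27 without the cluster found almost only in Con. In the 2 fibroblast-like sub-clusters with enough cells of both libraries to be compared it was -0.33 (-0.65 to -0.03) and -0.12 (-0.57 to 0.32), while the other sub-clusters held cells of 1 library only, or 30 SMA and 3 Con cells. The erythroid-like value was -0.36 with the shared SMA barcodes kept and -0.74 at clustering resolution 2, both within 2-fold, at levels of 8.75 CPM in SMA and 25.2 CPM in Con.

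Neuron-like cells were outside the comparisons because each library had under 50 of them, 43 in SMA and 26 in Con, led by Pkd2l1 and Pkd1l2, genes of the neurons that contact the cerebrospinal fluid. They drew attention because 2 members were far higher there than in any class compared. Meg3, which is used widely by neurons, was at 5860 CPM in SMA and 5436 CPM in Con, and Ndn at 2109 CPM and 2519 CPM. The SMA barcodes that were left out because Con listed them too also held neuron-like cells, with Meg3 at 4783 CPM and Ndn at 2230 CPM. These cells used a mean of 2.07 members per thinned cell in SMA and 2.42 in Con, while their Cdkn1c level was 59.1 and 26.6 CPM. The difference between neuron-like cells and the other classes was not tested.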

How the results depend on the processing

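No paired analysis was possible because each group had 1 library. Over the 59 measured pairs other than Cdkn1c in Schwann-like cells, which is given next, 607 values were recomputed under the alternatives, of which 540 stayed within the counting interval, 65 moved and 2 reversed. Reversed means that a main value of at least 2-fold changed its sign. Sign changes of smaller main values, such as Peg3 and Grb10 in fibroblast-like cells without the Con cluster, are not among these 2. The log2 ratio of Cdkn1c in Schwann-like cells was -1.56 with the shared SMA barcodes kept and -1.84 without the sub-cluster with most Cdkn1c, and it stayed at least 2-fold lower under each alternative run. The median of the members in fibroblast-like cells (-0.05) was -0.47 with only those Con barcodes that SMA also listed, 0.74 with every cell weighted equally and -0.58 without the Con cluster. The number of pairs at least 2-fold higher, 2 in the main setting, was 0 with only those Con barcodes and 0 without the Con fibroblast-like cluster, and 1 with shared barcodes kept, with the high-ribosome clusters kept, with a mitochondrial limit of 20% or with only cells of at least 5000 UMIs. In the last of these neither of the 2 pairs remained (Cdkn1c 0.69 and H19 0.61 in fibroblast-like cells), and the 1 counted was Mest in mural-like cells (1.19). The number at least 2-fold lower, 7, was 1 with shared barcodes kept. H19 in fibroblast-like cells reversed to -0.25 without the Con cluster and its 2 SMA cells, and Mest in erythroid-like cells to 0.046 at a mitochondrial limit of 20%. Where no construction of the alternative shows the cause, the cause was not tested. H19, Dlk1 and Plagl1 could be compared in the fewest classes, with at least 100 UMIs over both libraries in 2, 3 and 2 of 11.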

Other observations

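Among genes of the lists outside the members, Cdkn1a, the cyclin-dependent kinase inhibitor that p53 is known to induce, was at least 2-fold higher in SMA in several classes where Cdkn1c was not. It was at 234 CPM in SMA and 37.7 in Con in mural-like cells, at 246 and 69.7 in astrocyte-like cells, at 367 and 131 in endothelial-like cells, at 69.2 and 18.5 in COP-like cells and at 90.7 and 37.2 in OPC-like cells. In Schwann-like cells Cdkn1a was at 494 and 360 CPM, within 2-fold.

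Nnat, a paternally used imprinted gene, was at 1125 CPM in SMA and 76.3 CPM in Con in fibroblast-like cells, a log2 ratio of 3.88. Igf2, the paternally used growth factor next to H19, was at 1055 and 541 CPM there (0.96). Both values are over a class whose cells lay in different clusters in the libraries, and were not computed without the cluster found almost only in Con. Airn, a noncoding RNA of the Igf2r domain, was at 31.7 and 9.76 CPM in endothelial-like cells (1.70). With 1 library per group none of these differences was tested.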
